A study of Mus musculus with 9 samples.

Results

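The replication-dependent histone genes encode the core histones H2A, H2B, H3 and H4 and the linker histone H1 that package new DNA. They were followed through the chromatin accessibility of their loci in naive CD4+ T cells, the resting precursors of helper T cells. Members were the listed ATAC-seq peaks whose gene symbol began with Hist1h, Hist2h, Hist3h or Hist4h, which gave 55 of 115727 peaks, under 45 gene symbols. Of these, 47 lay at a transcription start site (TSS), 3 at a transcription termination site (TTS), 3 in a 5′ UTR exon and 2 in a 3′ UTR exon. A filter on low counts left 47 of the 55 for testing, 44 of them at a TSS. The groups were Stat6_KO (genotype Stat6 knockout), Il21e_KO (an allele the labels name both Il21e KO and IL21KO, without saying which DNA it lacks) and WT, each with 3 libraries. The cells of all groups were untreated and came from C57BL/6 mice, and the labels give neither age nor sex. They do not say whether the libraries of a group came from separate animals, so p-values measure the spread between these libraries.

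Most histone mRNA is made in S phase, when DNA is copied, and ends in a stem-loop instead of a poly(A) tail. The genes are short, lack introns in their usual form and stand in clusters that gather at the histone locus body, a nuclear site where NPAT drives their transcription and FLASH (encoded by Casp8ap2) and the U7 snRNP process their mRNAs. Naive T cells seldom divide, so they need little new histone, whereas an activated T cell divides fast and needs much.

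Promoters of these genes carry known motifs, and 1 promoter of each histone class is shown so that they can be compared. The RefSeq promoter table held windows of 250 bases before to 50 after the start for 62 of the 70 histone genes that it names by their former symbols, with 63 windows because Hist1h2be has 2. Capitals mark the octamer ATGCAAAT, CCAAT and TATAAA, searched on both strands, so that ATTTGCAT, ATTGG and TTTATA are the same motifs read on the other strand. All sequences read 5′ to 3′ on the strand of the gene, in build GRCm38.p6.
Hist1h1d (RefSeq H1f3, linker histone; chr13:23554782-23555081, + strand; the H1 gene with the highest level per kb): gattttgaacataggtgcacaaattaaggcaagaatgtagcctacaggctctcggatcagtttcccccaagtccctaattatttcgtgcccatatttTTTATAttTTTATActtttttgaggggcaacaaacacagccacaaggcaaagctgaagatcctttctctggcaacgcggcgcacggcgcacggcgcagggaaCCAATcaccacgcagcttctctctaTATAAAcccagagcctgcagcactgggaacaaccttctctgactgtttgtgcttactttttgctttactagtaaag
Hist1h2ah (RefSeq H2ac12, core histone H2A; chr13:22035594-22035893, - strand; the H2A gene with the highest level per kb): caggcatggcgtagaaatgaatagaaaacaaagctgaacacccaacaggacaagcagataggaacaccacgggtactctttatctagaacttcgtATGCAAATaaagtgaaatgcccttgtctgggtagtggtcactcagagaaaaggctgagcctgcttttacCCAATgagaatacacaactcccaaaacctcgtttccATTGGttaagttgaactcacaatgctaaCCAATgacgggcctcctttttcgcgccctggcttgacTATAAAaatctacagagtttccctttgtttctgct
Hist3h2ba (RefSeq H2bu2, core histone H2B; chr11:58948661-58948960, + strand; the H2B gene with the highest level per kb): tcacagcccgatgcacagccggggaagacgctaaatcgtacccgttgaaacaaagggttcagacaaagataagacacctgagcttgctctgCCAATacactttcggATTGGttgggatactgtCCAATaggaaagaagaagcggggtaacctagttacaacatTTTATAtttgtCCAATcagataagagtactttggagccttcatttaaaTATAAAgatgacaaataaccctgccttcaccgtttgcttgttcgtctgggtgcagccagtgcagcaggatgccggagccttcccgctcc
Hist1h3d (RefSeq H3c4, core histone H3; chr13:23575513-23575812, + strand; the histone gene with the smallest p in any comparison): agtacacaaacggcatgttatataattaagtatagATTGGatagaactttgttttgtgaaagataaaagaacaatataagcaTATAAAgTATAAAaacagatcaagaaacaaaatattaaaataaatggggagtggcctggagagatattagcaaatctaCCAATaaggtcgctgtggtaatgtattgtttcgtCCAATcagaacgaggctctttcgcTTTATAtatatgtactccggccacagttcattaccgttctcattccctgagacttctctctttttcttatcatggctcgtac
Hist1h4f (RefSeq H4c6, core histone H4; chr13:23551619-23551918, - strand; the H4 gene with the highest level per kb): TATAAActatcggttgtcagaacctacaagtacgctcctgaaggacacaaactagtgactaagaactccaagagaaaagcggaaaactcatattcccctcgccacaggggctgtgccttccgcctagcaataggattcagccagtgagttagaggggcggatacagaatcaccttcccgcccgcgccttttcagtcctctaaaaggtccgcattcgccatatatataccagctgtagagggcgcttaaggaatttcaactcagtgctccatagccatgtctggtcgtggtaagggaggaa

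The classes differed in the motifs they held. The octamer, which POU factors such as OCT-1 (Pou2f1) bind, was present in 14 of the 63 histone promoters (22.2%) and in 570 of all 32851 promoters of the table (1.74%). It stood in 7 of 18 H2A and 7 of 17 H2B promoters and in 0 of 6 H1, 0 of 10 H3 and 0 of 12 H4 promoters. CCAAT, which NF-Y binds, was present in 54 of 63 histone promoters (85.7%), against 37.4% of all promoters. That was every H1, H2A, H2B and H3 promoter and 3 of 12 H4 promoters, those of Hist1h4a, Hist1h4c and Hist1h4d. The Hist1h4f promoter above has no CCAAT, whereas the other promoters shown have at least 1. TATAAA was present in 35 of 63 histone promoters (55.6%), against 13.6% of all promoters. Matches were counted at any position in the window. In Hist1h4f the TATAAA match lies at the edge farthest from the start, and in Hist1h2ah it lies 15 bases after the listed start. The 55.6% is therefore not the share of promoters with TATAAA at a set distance from the start. An H2A and an H2B gene often start back to back: in RefSeq, 10 pairs had starts 164 to 281 bases apart on opposite strands, and all 10 joined H2A with H2B. Hist1h2ah and Hist1h2bk, 178 bases apart, are such a pair, and the windows of a pair overlap, so a shared motif was counted for both genes. A match says that the letters are present, not that a factor binds there.

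The peaks fell into separate groups on 4 chromosomes, given here in the coordinates of the peak table, which is on mm9. On chromosome 13, the large Hist1 cluster formed 2 parts, with 16 peaks in 328 kb (21807671 to 22135503) and 26 peaks in 234 kb (23622019 to 23855968). The Hist2 cluster on chromosome 3 held 8 peaks in 51.1 kb (96023149 to 96074245). On chromosome 11, Hist3h2ba and Hist3h2a had 1 peak each within 6.96 kb, and on chromosome 6 the lone H4 gene Hist4h4 had 1. The last 2 peaks, also on chromosome 13 (51297856 to 51298468), were listed under Hist1h2al, which RefSeq calls a transcribed pseudogene. Other peaks stood between the histone peaks: 30 in the first part of Hist1, where 25 were intergenic and the rest belonged to Pom121l2, Prss16 and Zfp184, 8 in the second part, which holds the iron regulator gene Hfe, and 2 in the Hist2 cluster.

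Not every histone gene had a peak under its own symbol. Of the 70 genes in the RefSeq table, 44 matched a peak by transcript accession and 26 did not. For 7 of the 26 (Hist1h2bl, Hist1h2bn, Hist1h2an, Hist1h2bk, Hist1h2bj, Hist1h2bg and Hist1h2ad), the divergent partner had the peak, and each peak carries only 1 gene name. The table also names Hist2h2aa2, whose accession had no match. The genes without a peak of their own name included Hist1h1t, Hist1h2aa and Hist1h2ba, which encode the testis forms of H1, H2A and H2B. Some peaks may belong to a neighbour or also take in a neighbour's start. The peak at 23842827 is listed as a TSS peak of Hist1h3b but ended 781 bases before its start, and RefSeq places the start of Hist1h2ab, an H2A gene with no peak of its own name, 1257 bases upstream of Hist1h3b. The peak at 23712441 to 23714721 marks the start of a long Hist1h2be transcript, and RefSeq places the start of Hist1h1e, the gene of the linker histone H1.4, 1464 bases upstream of it. By RefSeq distances, the starts of Hist1h3c, Hist1h2bh and Hist1h4a fall inside the peaks listed under Hist1h2bb, Hist1h3f and Hist1h3a. Those of Hist1h2ac, Hist2h2ab and Hist2h2bb fall inside the peaks of Hist1h2bc, Hist2h2ac and Hist2h3b. A gene without a peak of its own name may therefore still have an open start.

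Per kb, histone promoters stood near the middle of all promoters that passed the same filter. The value of a peak is its CPM, its share of the library's reads in peaks, scaled to a total common to all libraries. Peaks differ in length, so levels of different peaks are compared as CPM per kb of peak, averaged over the 9 libraries. The 44 tested histone TSS peaks had a median of 23.6 CPM per kb, between 12.5 and 31.9, against 23.0 for 11861 other tested TSS peaks. That median lay above 55.1% of the other TSS peaks. They were also of common length, with a median of 1030 bases against 1164. The 24 other tested peaks inside the histone clusters had a median of 20.8 CPM per kb. Within the Hist1 and Hist2 clusters the medians were 24.6 CPM per kb for 12 TSS peaks of the first Hist1 part, 23.4 for 22 of the second part and 21.2 for 7 of Hist2.

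Among the classes, the median level was 21.6 CPM per kb for 3 H1 peaks, 24.1 for 10 H2A peaks, 24.7 for 8 H2B peaks, 21.3 for 12 H3 peaks and 23.5 for 11 H4 peaks. These are descriptions, since the peaks are not replicates of a class. Each peak counts in the class of its listed gene, though some also take in the start of another histone gene. The ranges of the classes overlapped. The highest levels were those of the H2B gene Hist3h2ba and the H4 gene Hist1h4f, at 31.9 CPM per kb each. In the other classes the highest were Hist1h1d at 29.6, which encodes the linker histone H1.3, Hist1h2ah at 29.2 and the peak upstream of Hist1h3b at 26.2 CPM per kb. The lowest H1 level was 20.3 CPM per kb at Hist1h1c, which encodes H1.2, and the lowest H2B level was 19.7 at Hist1h2bc. The lowest levels of H3, H4 and H2A were at genes with near-identical copies: Hist2h3c1 (12.5 CPM per kb), Hist1h4n (15.8) and Hist2h2aa2 (15.6). The table places Hist2h3c1 and Hist1h4n at 2 positions each. How reads that match several copies were counted is not given in the sources used here, so these levels are uncertain.

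**Figure D1:**
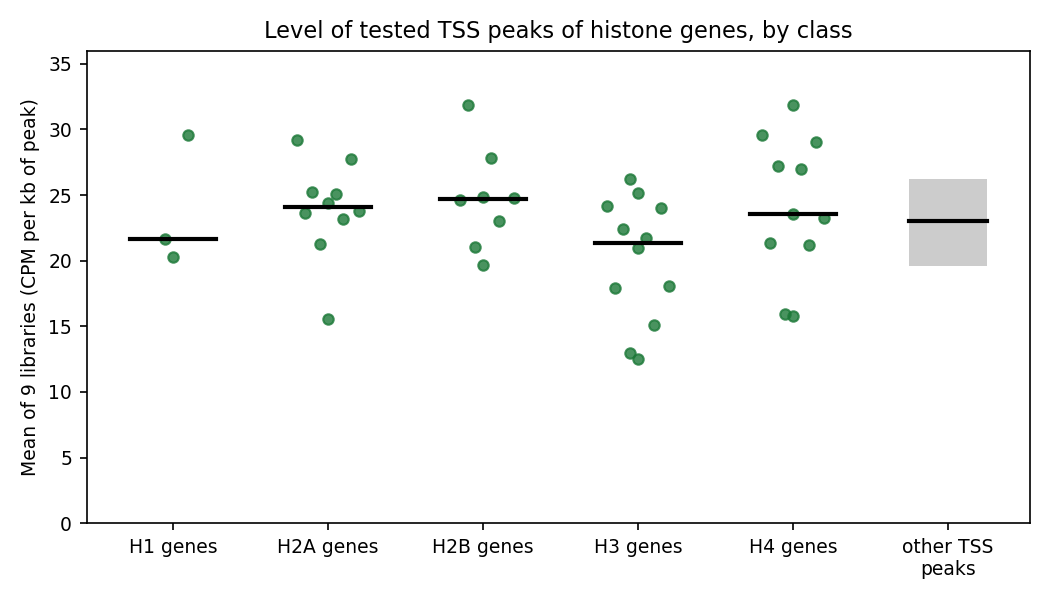
Each point is a tested TSS peak of a histone gene, placed by class, with its mean CPM per kb of peak over the 9 libraries on the y axis. Black lines are medians and the grey bar spans the middle quartiles of 11861 other tested TSS peaks. The class medians lie between 21.3 and 24.7 CPM per kb, around the 23.0 of the other TSS peaks.

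The genes are short, and the open stretch usually took in most of the gene body. The 44 tested histone TSS peaks covered a median of 96.2% of the listed transcript, 21 covered it whole and 34 covered the larger part of it. Among 11861 other TSS peaks the median was 2.59%, with transcripts of a median 20610 bases against 483. Other TSS peaks whose transcript was under 1 kb covered a median of 83.2% (n = 215). Their transcripts had a median of 108 bases, so they are not matched in length to the histone genes. The gene's end was reached by 21 of the 44 histone peaks (47.7%), against 45.6% for those 215.

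The 8 histone peaks away from a TSS were weaker, with a median of 9.00 CPM per kb. Of the 3 that were tested, the strongest lay at the 3′ end of Hist1h1b, the gene of the linker histone H1.5, at 18.3 CPM per kb. It had 22.2, 18.3 and 21.4 CPM in Stat6_KO, 25.7, 15.1 and 16.6 CPM in Il21e_KO and 19.6, 13.2 and 12.9 CPM in WT. The groups overlapped. Its own TSS peak, in contrast, was below the filter, with a mean of 3.73 ± 1.88 CPM in Stat6_KO, 4.11 ± 1.13 in Il21e_KO and 2.45 ± 0.12 in WT (SD, n = 3). The other 2 tested peaks lay at the TTS of Hist1h4n (9.6 CPM per kb) and in a 5′ UTR exon of the long Hist1h2be transcript at 23689733 (15.7 CPM per kb). The peaks below the filter were, besides the Hist1h1b TSS, the Hist1h4m TSS, 2 more 5′ UTR exon peaks of Hist1h2be, the 3′ UTR exon of Hist1h2bc, both Hist1h2al peaks and the TTS of Hist2h3c2. Their means in any group did not pass 5.12 CPM.

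Before genotypes are compared, a library that stands apart has to be named. The libraries held 1049460 to 1802405 reads in peaks, and 1 read was worth 0.555 to 0.953 CPM. Il21e_KO 1 was the shallowest, had no read in 27200 peaks against 3898 to 12916 in the others, and had 42.7% of its reads in TSS peaks against 31.6% to 36.4%. The 8 naive CD4 T cell marker genes all had a tested TSS peak, and their 10 TSS peaks summed to 190 to 258 CPM. Of the markers of other cells, 1 CD8 T cell, 2 B cell, 2 myeloid and 2 NK cell TSS peaks were tested and none of erythroid cells. Their sums were 30.0 to 40.5 CPM for CD8, 13.3 to 29.7 for B, 18.1 to 47.7 for myeloid and 11.4 to 22.7 for NK cells, with the myeloid, B and NK sums lowest in Il21e_KO 1. The sums cover unequal numbers of peaks, so they compare libraries and do not show the share of each cell type. As a check of the alleles, the exon 12 peak of Stat6 held 5, 3 and 3 reads in Stat6_KO against 11, 9 and 19 in WT (log2 fold change -1.59, limma-trend adjusted p = 1). Its exon 16 peak held 41, 33 and 25 reads in Stat6_KO against 9, 12 and 17 in WT (log2 fold change 1.11, adjusted p = 1), and its TSS peak had a log2 fold change of -0.10. The 6 peaks of Il21 held at most 5 reads in any library. In bulk cells, a lower value can mean fewer cells with an open site or a less open site in each, which cannot be told apart here.

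The histone signal was highest in Il21e_KO 1. Summed over the 55 peaks it was 1118, 1138 and 1160 CPM in Stat6_KO, 1880, 1149 and 1110 CPM in Il21e_KO, and 1332, 1331 and 1111 CPM in WT. Within Il21e_KO only library 1 was high, and the other libraries of that group lay near the Stat6_KO values. WT 1 and WT 2 lay above every library but Il21e_KO 1, and they also had the next highest TSS shares (36.4% and 35.6%). The group means were 1138 ± 21.0 CPM in Stat6_KO, 1380 ± 434 in Il21e_KO and 1258 ± 128 in WT (SD, n = 3). As a share of the reads in all TSS peaks, which removes the difference in TSS share, histone TSS peaks held 0.426% in Il21e_KO 1 (exact 95% binomial interval 0.408% to 0.446%). The other 8 libraries held 0.324% to 0.363%. Of these, Stat6_KO had 0.338%, 0.326% and 0.335%, the other Il21e_KO libraries 0.338% and 0.324%, and WT 0.354%, 0.363% and 0.333%.

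**Figure D2:**
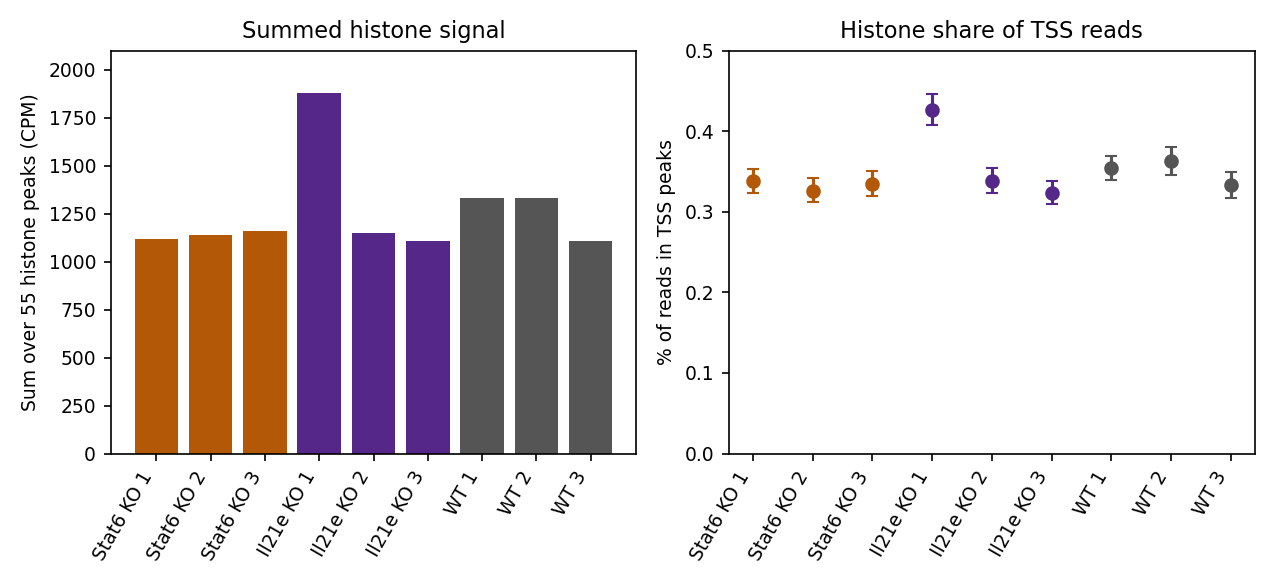
The left panel shows the CPM summed over the 55 histone peaks in each library, and the right panel the share of reads in TSS peaks that fell in histone TSS peaks, with exact 95% binomial intervals. Stat6 KO, Il21e KO and WT libraries are orange, purple and grey. Il21e KO 1 is the highest in both panels, at 1880 CPM and 0.426%.

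Library Il21e_KO 1 was high in most histone peaks and, by the median, in every class. It had the highest value in 38 of the 47 tested histone peaks (80.9%), against 54.8% of other TSS peaks and 14.9% of peaks away from a TSS. Its median difference from the median of the other 8 libraries was 0.62 on the log2(CPM + 1) scale over histone peaks, 0.35 over other TSS peaks and -0.29 over peaks away from a TSS. By class the difference was 0.46 for H1, 0.61 for H2A, 0.68 for H2B, 0.74 for H3 and 0.62 for H4. By cluster it was 0.56 and 0.74 in the 2 parts of Hist1 and 0.68 in Hist2. TSS peaks of related genes were about as high in this library: 0.72 for variant histone genes, 0.76 for histone chaperones, 0.64 for DNA replication genes and 0.53 for genes of histone transcription and mRNA processing. The naive CD4 markers stood at 0.23, and other TSS peaks with a transcript under 1 kb at 0.25. The largest ratio of Il21e_KO 1 to the highest of the other 8 libraries, 1.90, was at Hist1h2ak, an H2A gene, with 63.8 CPM in Il21e_KO 1 and 22.1 to 33.5 CPM in the other 8 libraries. The exceptions included the Hist1h3b peak at 23844014, with 6.67 CPM in Il21e_KO 1, and the Hist1h4n TSS peak, with 10.5 CPM. In each of them Il21e_KO 1 was the lowest of the 9. Both Hist2h3c1 peaks were exceptions too. What sets this library apart was not tested.

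**Figure D3:**
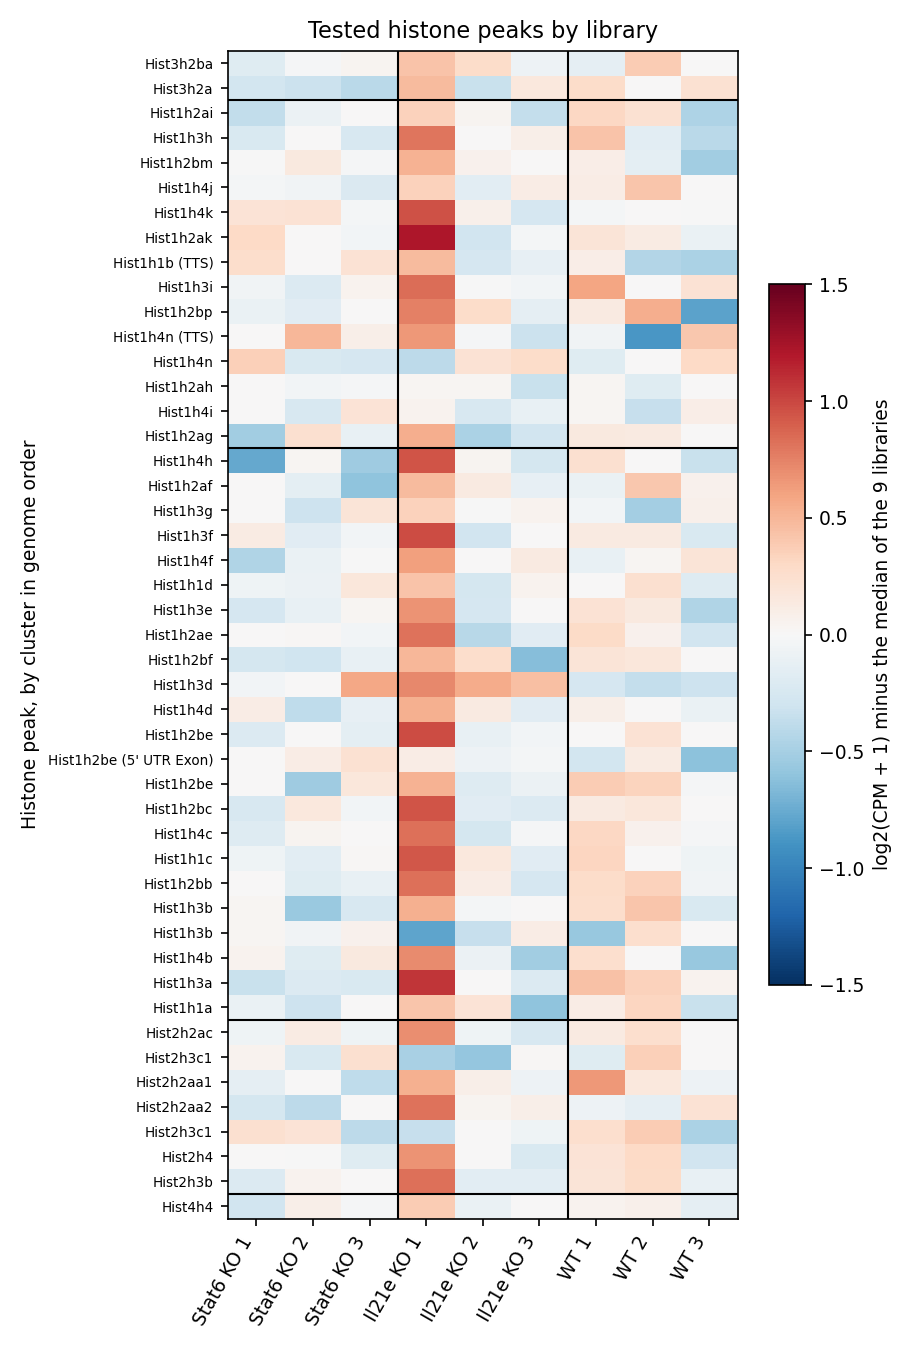
Rows are the 47 tested histone peaks in genome order within each cluster (black lines separate clusters) and columns are the 9 libraries. Colour is log2(CPM + 1) minus the median of the peak's 9 values. The Il21e KO 1 column is red in most rows, and it is the highest of the 9 in 38 of 47.

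Without that library, a single histone peak typically varied within groups about as much as read counting alone allows. The chi-square of reads between libraries of a group, per degree of freedom, had a median of 1.49 over the 47 histone peaks with all libraries and 0.765 without Il21e_KO 1, where counting alone gives 0.870. For other TSS peaks the medians were 1.33 and 0.787. A median over single peaks does not show a shift that the peaks of a library share. The summed histone signal of WT 3, for example, lay below those of WT 1 and WT 2.

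Loss of Stat6 was compared with WT to see whether naive cells without this interleukin-4 signal transducer open their histone genes differently. No histone peak passed a false discovery rate (FDR) of 0.05 in limma-trend (0 of 47), where 0.0104% of all 48287 tested peaks did (5, all lower in Stat6_KO and none at a TSS). At an unadjusted p under 0.05, 0 histone peaks were higher and 2 lower in limma-trend, against 1.68% higher and 1.62% lower of all tested peaks. Of other TSS peaks, 0.58% were higher and 2.52% lower. For histone peaks the edgeR quasi-likelihood test gave 0 and 1, and DESeq2 0 and 0, again with 0 past the FDR. The median log2 fold change was -0.13 over the histone peaks, with 35 of 47 below 0, and -0.08 over other TSS peaks, with 67.0% below 0. Over all tested peaks it was -0.00. The within-group SD of a library's median over histone peaks was 0.24, pooled over all groups, Il21e_KO 1 included. That library is in neither group of this comparison, so the 0.24 does not give the spread of Stat6_KO and WT alone. For the summed histone CPM, the SD was 21.0 in Stat6_KO and 128 in WT, against 434 in Il21e_KO. By class the median log2 fold change was -0.16 for H1, -0.20 for H2A, -0.17 for H2B, -0.07 for H3 and -0.13 for H4.

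Hist3h2a, an H2A gene on chromosome 11, had the smallest p. Its TSS peak (58767412 to 58768740) had 25.6, 24.7 and 23.2 CPM in Stat6_KO and 37.9, 31.1 and 36.8 CPM in WT. The groups did not overlap, Stat6_KO being lower, with 38 to 45 reads a library in Stat6_KO and 40 to 62 in WT. The log2 fold change was -0.50 ± 0.20 (SE; limma-trend unadjusted p = 0.0202, adjusted p = 1). Hist1h3a, an H3 gene at the end of the second Hist1 part, had 31.8, 34.7 and 34.3 CPM in Stat6_KO and 55.1, 51.4 and 41.9 CPM in WT. Here too the groups did not overlap (log2 fold change -0.54 ± 0.24; limma-trend unadjusted p = 0.0404, adjusted p = 1). The next lower ones were the Hist1h3b peak at 23842827 (-0.41 ± 0.24) and the long-transcript start of Hist1h2be (-0.36 ± 0.21), both with overlapping groups.

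In the other direction, the Hist1h3d TSS peak had 7.96, 8.24 and 12.8 CPM in Stat6_KO and 6.73, 6.23 and 6.45 CPM in WT, with all Stat6_KO values above WT (log2 fold change 0.49 ± 0.25, limma-trend unadjusted p = 0.0656). Hist1h1b at its TTS (0.43 ± 0.23), the 5′ UTR exon peak of Hist1h2be (0.37 ± 0.23) and the H2B gene Hist1h2bm (0.23 ± 0.21) followed, all with overlapping groups. Of the 47 tested histone peaks, 1 lay wholly above and 5 wholly below WT, against 6.31% and 6.89% of all tested peaks. Among other TSS peaks 10.7% lay wholly below WT, against 10.6% of the histone peaks. With Il21e_KO 1 left out of the fit, which pools the spread over the groups, 1 histone peak was higher and 7 lower at an unadjusted p under 0.05, Hist3h2a and Hist1h3a among the lower ones. In that fit 4.3% of all tested peaks were higher and 4.92% lower, and 9.34% of other TSS peaks were lower, against 15.9% of histone TSS peaks (7 of 44). The count past the FDR over all peaks was 61 in place of 5. None of the 61 was a histone peak, and the lowest adjusted p among histone peaks was 0.0873.

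The Il21e_KO allele was compared with WT in the same way, and again 0 of 47 histone peaks passed the FDR in limma-trend, edgeR and DESeq2, as did 0% of all tested peaks. At an unadjusted p under 0.05, 1 histone peak was higher and 0 lower in each of the 3 tools, against 1.1% higher and 2.41% lower of all tested peaks in limma-trend. Of other TSS peaks, 1.25% were higher and 1.19% lower in limma-trend. The median log2 fold change of histone peaks was 0.06, with 32 of 47 above 0, and that of other TSS peaks was 0.03. The direction rested on Il21e_KO 1: without it the histone median was -0.13, with 35 of 47 below 0, and that of other TSS peaks was -0.07. Leaving out WT 3 also turned the histone median, to -0.02, as it did that of other TSS peaks (-0.02). Without Il21e_KO 1, 1 histone peak was higher and 4 lower at an unadjusted p under 0.05 in limma-trend. The 4 were 9.09% of the 44 histone TSS peaks, against 7.11% of other TSS peaks and 3.74% of all tested peaks. Of all 48287 tested peaks, 1526 were higher.

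With all libraries in the fit, the histone peak past the unadjusted threshold was the TSS peak of Hist1h3d (23667594 to 23668055). Hist1h3d is an H3 gene in the second part of Hist1 whose promoter is printed above. The peak had 14.3, 12.6 and 11.7 CPM in Il21e_KO and 6.73, 6.23 and 6.45 CPM in WT. All Il21e_KO libraries lay above all WT libraries, and the values of Il21e_KO 2 and 3 were close to that of Il21e_KO 1. These values rested on few reads, 15, 20 and 21 for Il21e_KO, against 11, 8 and 10 for WT. The log2 fold change was 0.89 ± 0.25 (SE; limma-trend unadjusted p = 0.00226, adjusted p = 1.00), and without Il21e_KO 1 it was 0.81 (adjusted p = 0.566, the lowest over its alternatives, which reached 1). Of the 47 tested histone peaks it was the only one wholly above WT, and 0 lay wholly below, against 2.84% and 4.44% of all tested peaks. After it, Hist1h2bm (0.38 ± 0.21), the H3 gene Hist1h3g (0.29 ± 0.22) and the Hist1h1b TTS peak (0.30 ± 0.23) were higher, and a Hist2h3c1 peak (-0.41 ± 0.31), the second Hist1h3b peak (-0.24 ± 0.27), Hist1h2ag, an H2A gene (-0.17 ± 0.25), and the long-transcript start of Hist1h2be (-0.16 ± 0.21) lower, all with overlapping groups.

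**Figure D4:**
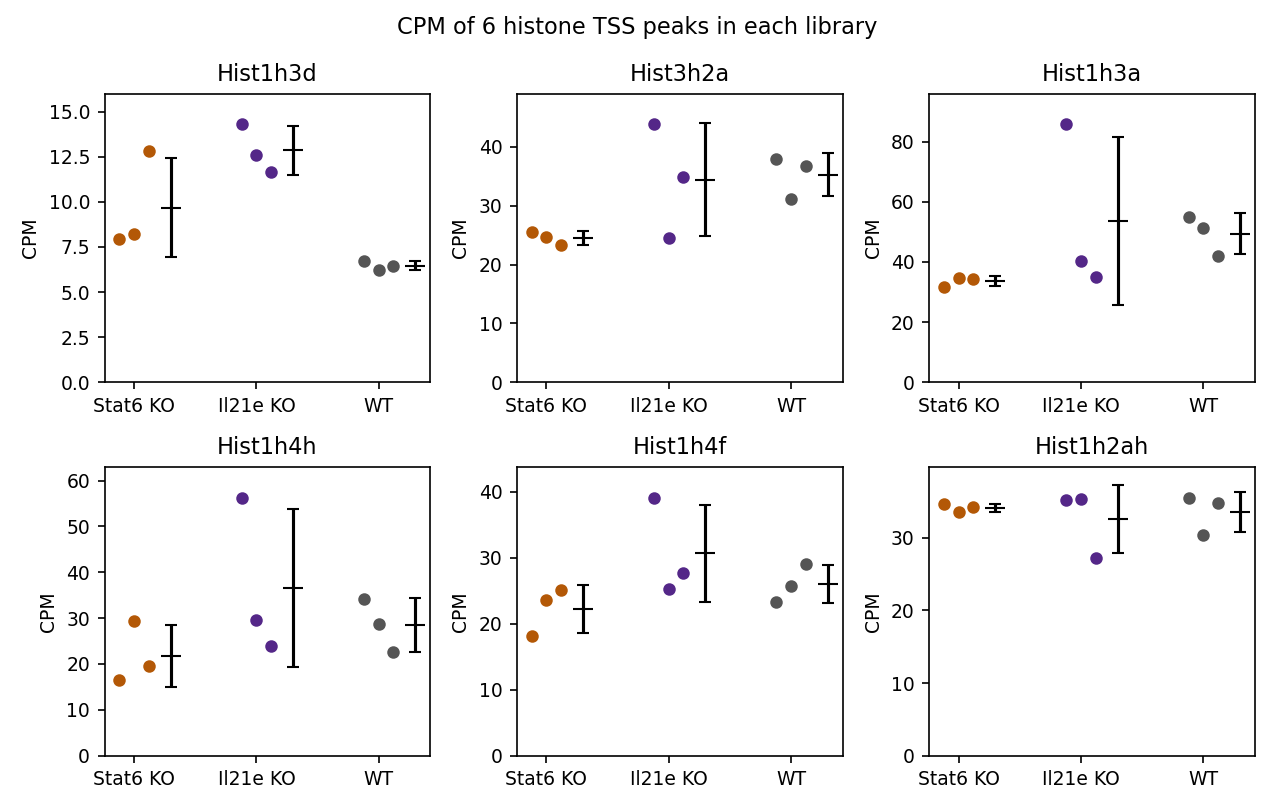
Points show the CPM of each library for 6 histone TSS peaks, with the mean and SD (n = 3) of each genotype beside them in black. Hist1h3d has all Il21e KO libraries above 11 CPM and all WT libraries below 7 CPM, Hist3h2a and Hist1h3a have all Stat6 KO libraries below WT, and Hist1h2ah overlaps in all groups.

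Set directly against each other, Stat6_KO and Il21e_KO differed in 0 of 47 histone peaks at the FDR in limma-trend, edgeR and DESeq2, where 0.0104% of all tested peaks passed in limma-trend. At an unadjusted p under 0.05, 0 were higher and 4 lower in Stat6_KO in limma-trend, against 3.31% higher and 2.38% lower of all tested peaks. Of other TSS peaks, 1.45% were higher and 5.13% lower, and 8.51% of histone peaks were lower. For histone peaks edgeR gave 0 and 3 and DESeq2 0 and 2. The 4 were Hist1h4h, Hist1h3a, Hist3h2a and Hist1h4f. Hist1h4h, the H4 gene that opens the second Hist1 part, had 16.5, 29.4 and 19.6 CPM in Stat6_KO and 56.2, 29.6 and 23.9 CPM in Il21e_KO. The groups overlapped, with Il21e_KO 1 far above the rest (log2 fold change -0.66 ± 0.27, limma-trend unadjusted p = 0.0269, adjusted p = 0.780). Hist1h4f had 18.2, 23.6 and 25.1 CPM in Stat6_KO and 39.1, 25.2 and 27.7 CPM in Il21e_KO, without overlap (-0.43 ± 0.20, limma-trend unadjusted p = 0.0463). Hist1h3a, also without overlap, differed by -0.55 ± 0.24, and Hist3h2a, with overlap, by -0.44 ± 0.20.

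Of the 8 tested peaks with the opposite sign, the 4 with the smallest p were the second Hist1h3b peak (0.35 ± 0.27), both Hist2h3c1 peaks (0.37 ± 0.31 and 0.15 ± 0.31) and the Hist1h1b TTS peak (0.13 ± 0.23), all with overlapping groups. In this comparison 0 of the 47 tested histone peaks lay wholly above Il21e_KO and 3 wholly below (Hist1h3a, Hist1h4f and Hist2h2aa2), against 6.45% and 4.59% of all tested peaks. Among other TSS peaks 7.72% lay wholly below Il21e_KO, against 6.38% of the histone peaks. The median log2 fold change was -0.21 over histone peaks, with 39 of 47 below 0, and -0.12 over other TSS peaks. Without Il21e_KO 1 the histone median was 0.01, with 22 of 47 below 0, and 0 histone peaks were past an unadjusted p of 0.05, where 1.99% of all tested peaks were higher and 1.89% lower.

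**Figure D5:**
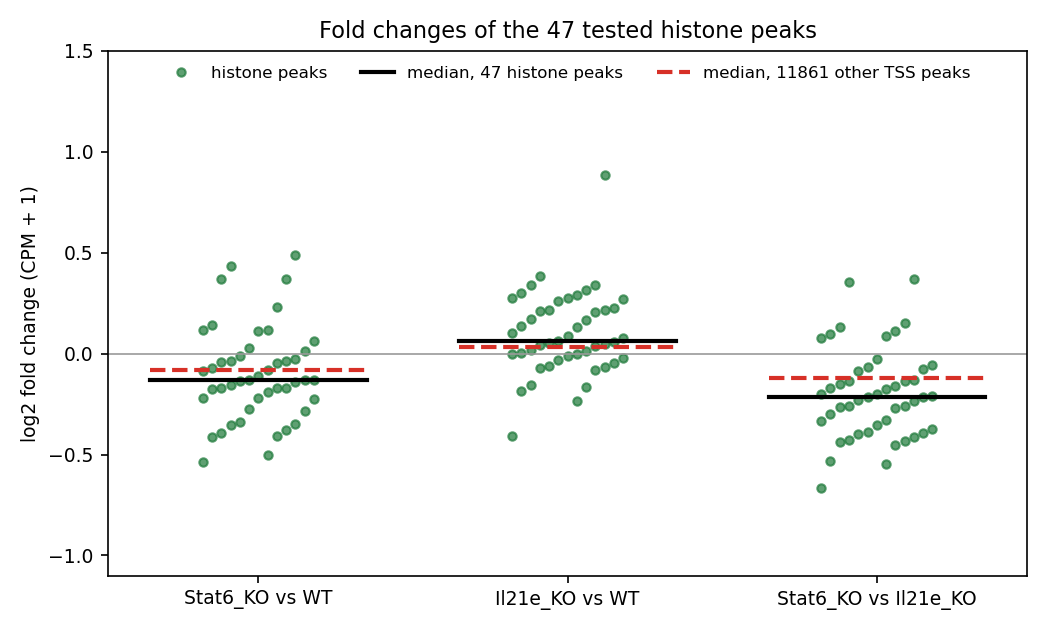
Each point is the log2 fold change, on the log2(CPM + 1) scale, of a tested histone peak in 1 of the 3 comparisons, the first genotype named over the second. Black lines are the medians of the 47 histone peaks (-0.13, 0.06 and -0.21) and red dashed lines those of 11861 other TSS peaks (-0.08, 0.03 and -0.12).

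Genes that work with the replication-dependent histones gave no peak past the FDR either, in limma-trend. Among the variant histone genes, which supply histones outside S phase, 9 TSS peaks of 9 genes were tested. Their median log2 fold change was -0.27 in Stat6_KO against WT, with 9 of 9 below 0, and -0.01 in Il21e_KO against WT. For the 22 TSS peaks of genes for histone transcription and mRNA 3′ processing, such as Casp8ap2 and the stem-loop binding protein gene Slbp, the medians were -0.14 and 0.07. For 12 histone chaperone peaks, whose proteins carry histones to DNA, they were -0.17 and 0.07, and for 19 peaks of DNA replication genes -0.08 and 0.09. At an unadjusted p under 0.05, 1 variant histone peak was lower in Stat6_KO than in WT, and 0 peaks of the other 3 lists were. Of other TSS peaks 2.52% were lower, and of all tested peaks 1.62%. In Il21e_KO against WT 0 peaks of these 4 lists passed that threshold, where 1.25% of other TSS peaks were higher and 1.19% lower. Of all tested peaks, 1.1% were higher and 2.41% lower. In Stat6_KO against Il21e_KO 2 of each list did, all lower in Stat6_KO, where 2.38% of all tested peaks and 5.13% of other TSS peaks were lower. These lists stood high in Il21e_KO 1, and without that library 1, 1, 0 and 1 of their peaks were lower, in the order given above. The fit without Il21e_KO 1 went the other way against WT. In Stat6_KO, 3, 2, 2 and 1 peaks were then lower than in WT, against 9.34% of other TSS peaks and 4.92% of all tested peaks. In Il21e_KO, 2, 2, 2 and 1 were lower than in WT, against 7.11% and 3.74%. The table lists no peak under Npat, the gene of the histone locus body activator.

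At 3 further promoters the genotypes overlapped. The Hist1h2ah TSS peak, the most open H2A promoter per kb, had 34.7, 33.6 and 34.3 CPM in Stat6_KO, 35.3, 35.3 and 27.2 CPM in Il21e_KO and 35.5, 30.4 and 34.8 CPM in WT. Its log2 fold changes were 0.03 in Stat6_KO and -0.05 in Il21e_KO against WT, and Il21e_KO 1 did not stand out in it. Hist1h1d, the most open H1 promoter per kb, had means of 46.8 ± 5.01 CPM in Stat6_KO, 49.9 ± 12.3 in Il21e_KO and 47.5 ± 7.37 in WT (SD, n = 3). The widest histone peak, 2597 bases at the H2A gene Hist2h2ac, had 60.7 ± 4.57 CPM in Stat6_KO, 69.4 ± 26.0 in Il21e_KO and 66.6 ± 5.89 in WT. A missed threshold does not show equal levels: the median standard error of a histone peak's log2 fold change was 0.24, which sets the size of difference that these libraries could show.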

How the data were processed

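Naive CD4+ T cells of 3 genotypes, with 3 ATAC-seq libraries each, were measured in 1 shared table of 115727 peaks on mm9. The deposited values are CPM, which the authors divided by each library's reads in peaks, since every column has the same sum. Tools named in the submitters' processing notes are HOMER, MACS2 2.0 and Bowtie 1.3.0, with no role for any. Peak merging and the handling of reads with several matches are not given in the sources used here. Headers of the gene columns are shifted, so they were read by content, and 41627 peaks carry no gene.

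Each value was a whole multiple of the worth of 1 read, within 0.01 read for 100% of values, which gave back read counts and depth (1049460 to 1802405 reads in peaks). Intervals cover counting error only. Peaks passed filterByExpr of edgeR 4.0.16 (minimum count 10, minimum total 15), which left 48287. Values were tested as log2(CPM + 1) in a single limma-trend fit of the 9 libraries (R 4.3.3, limma 3.58.1), with Benjamini-Hochberg adjustment over all tested peaks and an FDR of 0.05; fold changes on this scale understate low peaks. The edgeR quasi-likelihood test and DESeq2 1.42.0 on the recovered reads were alternatives, with other scalings, pseudocounts of 0.25 and 5, no filter, fits of 2 groups, a replicate block and each library left out. The fit was tested on simulated data, with larger changes than any seen in a histone peak and with no library set apart. That test therefore does not show whether changes of the size seen here could be found. Clusters join peaks under 1 Mb apart.

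The members and gene lists were chosen with earlier results of these data known. Peaks are named if they were among the 4 smallest p in a direction of a comparison, the highest or lowest per kb of a class at a tested TSS, away from a TSS or below the filter. Hist1h2ak, Hist2h2ac, Hist1h2bb, Hist1h3f, Hist2h3b, Hist1h4a, Hist1h4c, Hist1h4d and the genes without a peak were named after their values were seen. Promoters come from RefSeq (GRCm38.p6) and were matched by transcript accession for 44 of 45 symbols. The promoter table has no entry for Hist1h3f, Hist1h2bc, Hist1h3a, Hist2h4, Hist2h2be, Hist1h2al, Hist3h2bb and Hist1h2aj.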

Additional observations from a re-analysis of the deposited data

How the results depend on the processing

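Under all 19 alternatives 0 histone peaks were past the FDR in each comparison, including the fit with the replicate block, where 0 were called. Same-numbered libraries of different groups had r between -0.19 and 0.25 in their deviations from the group mean, and the other pairs between -0.30 and 0.24. Deviations within a group of 3 are tied to each other, so these values do not decide whether replicate numbers pair libraries. The histone median lay between -0.20 and -0.05 over these alternatives for Stat6_KO against WT. It lay between -0.13 and 0.26 for Il21e_KO against WT and between -0.38 and 0.01 for Stat6_KO against Il21e_KO, where the ends come from leaving out Il21e_KO 1 or Il21e_KO 3. Scaling to the reads in TSS peaks gave histone medians of -0.05 for Stat6_KO against WT, 0.02 for Il21e_KO against WT and -0.08 for Stat6_KO against Il21e_KO, and moved the median of all peaks in Stat6_KO against Il21e_KO to 0.16, where it had been 0.04. Over all tested peaks the calls ranged from 3 to 61 for Stat6_KO against WT (5 in the main analysis, 38 in the fit of 2 groups, 61 without Il21e_KO 1), from 0 to 2 for Il21e_KO against WT, and from 4 to 17 for Stat6_KO against Il21e_KO (5 in the main analysis, 12 in edgeR, 13 with cyclic loess, 16 with no filter and 17 without Il21e_KO 1). The cause was not tested. Depth limits weak peaks most: the TSS peak of Hist1h3d rests on 8 to 21 reads a library, and a count of 0 allows up to 3 reads.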
